A study of Homo sapiens with 8 samples.

Results

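The genes of the proteasome were followed in cisplatin-resistant and parental head and neck squamous cell carcinoma cells. The set was chosen by symbol: protein-coding genes of GENCODE release 44 whose symbol starts with PSMA, PSMB, PSMC, PSMD, PSME, PSMF or PSMG followed by a digit. The deposited files held transcripts of 46 such genes, of 35113 genes in all. A further 3 genes of the set, PSMC4, PSME1 and PSME2, had no transcript that matched by identifier and were not analysed here. The 4 groups were established cell lines. SCC89 is the HPV− line UPCISCC89, and SCC411 is a cisplatin-resistant clone grown from it. SCC2 is the HPV+ line UDSCC2, and SCC35 is its cisplatin-resistant clone. Each resistant group is a single clone, picked from 1 cell after long-term cisplatin, so what the clone was before selection and what selection brought cannot be told apart. Each HPV status is a single cell line, and the HPV+ line was selected at higher cisplatin concentrations than the HPV− line. HPV status, cell line and dose therefore differ together and cannot be told apart. Each group had 2 libraries. Whether these were grown as separate cultures is not stated, and the p-values therefore cover no more than the spread between libraries, which can be technical.

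The 26S proteasome degrades proteins that carry ubiquitin chains. Its 20S core is a barrel of alpha and beta rings with the catalytic sites inside, and the 19S cap binds, unfolds and feeds in the substrate. In cells exposed to interferon, 3 catalytic beta subunits are replaced by PSMB8, PSMB9 and PSMB10, which gives the immunoproteasome, a source of peptides for MHC class I. Other caps (PSME genes) activate the core without ubiquitin, and dedicated chaperones (PSMG genes and PSMD5, PSMD9 and PSMD10) assemble core and cap.

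Of the 46 genes, 14 encode the standard 20S core, 15 the 19S cap, 3 the immunoproteasome, 3 the activators PSME3 and PSME4 and the regulator PSMF1, and 7 assembly chaperones. PSMC3IP, a recombination factor, and PSME3IP1, which binds PSME3, match the symbol rule and are no subunits. PSMA8 and PSMB11, the 20S subunits of testis and thymus, were at 0 counts in all 8 libraries, which allows at most 0.113 to 0.16 CPM (counts scaled to a common library total with TMM factors) at a limit of 3 counts per library. The other 44 passed the filter on low counts. Of these, 38 had every annotated transcript in the files. PSMB9 had 1 of 5, PSMB3 1 of 6, PSMB8 3 of 7, PSMG2 10 of 23, PSMD8 9 of 14 and PSMC5 21 of 25, and the levels of these 6 genes are therefore uncertain. PSMB8 and PSMB9 lie next to each other in the MHC region and overlap on opposite strands, and the sources do not say that counting used strand.

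Libraries held 20250246 to 27341284 read pairs assigned to transcripts, as the sum of estimated counts. Of these, 4.33 to 5.13% fell on transcripts that matched no annotated gene. Squamous markers were summed over 10 genes (KRT5, KRT14, KRT6A, KRT17, TP63 and others) and reached 23283 to 24423 CPM in SCC89 against 5072 to 6163 CPM in SCC411 and 5166 to 6433 CPM in the 4 HPV+ libraries. In SCC411 against SCC89, 8 of the 10 passed the test as lower. In SCC35 against SCC2, KRT17 (3.06), KRT6A (2.83) and EPCAM (0.81) passed as higher and KRT14 (−1.25) as lower, by log2 fold change, and the fibroblast genes LUM (−1.76) and DCN (−1.78) passed as lower. The 6 fibroblast markers summed to 4.70 to 12.3 CPM in the HPV− groups and to 1451 to 3389 CPM in the HPV+ groups, most of it COL3A1, with PDGFRB at 0 in every HPV+ library. The 8 leukocyte markers summed to 158 to 166 CPM in SCC89, 54.6 to 82.3 CPM in SCC411 and 9.60 to 17.2 CPM in the HPV+ groups, most of it CD68, with PTPRC at or below 0.18 CPM and TYROBP at 0 throughout. The 4 endothelial markers summed to at most 0.453 CPM. The part of these differences in the proteasome results was not tested.

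The proteasome genes took a smaller share of all counts in both resistant clones. The share was 0.747 and 0.689% in the SCC89 libraries against 0.479 and 0.503% in SCC411, and 0.532 and 0.519% in SCC2 against 0.461 and 0.448% in SCC35. In bulk RNA, fewer cells of a type and less RNA per cell cannot be told apart. Levels between genes were compared as TPM (transcript abundance scaled for length and for the library total). Summed over the 14 core genes, TPM was 5052 and 4924 in SCC89, 3251 and 3506 in SCC411, 3326 and 3416 in SCC2 and 2875 and 2845 in SCC35. Both libraries of each clone were below both of their parental line, and the HPV− clone was at the level of the HPV+ parental cells. The 15 cap genes summed to 1851 and 2044 TPM in SCC89, 1225 and 1353 in SCC411, 1788 and 1779 in SCC2 and 1535 and 1546 in SCC35.

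**Figure D1:**
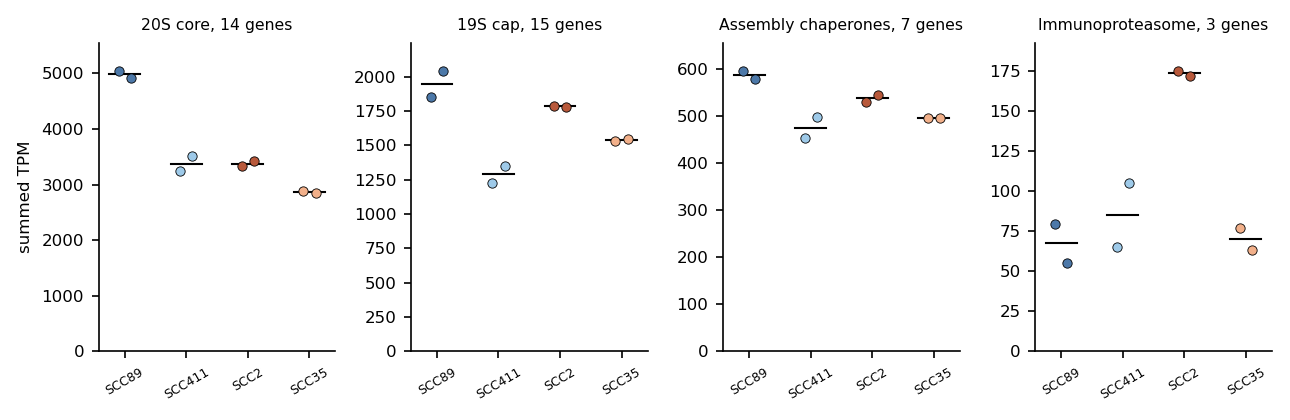
Summed TPM of the 20S core, the 19S cap, the assembly chaperones and the 3 immunoproteasome genes in each of the 8 libraries; points are libraries and bars are means of 2 libraries. Core and cap sums were lower in each resistant clone than in its parental line. The immunoproteasome sum was 176 and 172 TPM in SCC2, mostly PSMB10. Most estimated counts of PSMB10 there went to a 591-base retained-intron transcript, so the order of this sum is not that of protein-coding PSMB10.

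Single genes spanned a wide range. In SCC89 the alpha subunit PSMA7 had the highest level, 873 ± 97.8 TPM (mean ± SD, n = 2), followed by PSMA6 at 691 ± 184, whose libraries spread into the range of PSMA7. PSMA3 came next, at 447 ± 16.5 TPM. PSMA4, PSMB6 and PSMB3 followed at 416 ± 21.9, 410 ± 17.7 and 407 ± 15.5 TPM and did not differ beyond their spread. Both PSMA3 libraries (435 and 458 TPM) were above those of these 3 genes, narrowly so for PSMA4 (401 and 432 TPM). Among the catalytic subunits of SCC89, PSMB6 (caspase-like site) exceeded PSMB7 (trypsin-like site, 281 ± 4.24 TPM), which exceeded PSMB5 (chymotrypsin-like site, 168 ± 12.3 TPM). In SCC2 the order was different, with PSMB7 at 387 ± 7.62 TPM and with PSMB5 at 241 ± 17.4 and PSMB6 at 234 ± 16 TPM, which overlap. In SCC89 the lowest means of standard subunits were those of PSMB2 in the core, at 63.7 ± 13.0 TPM, and PSMD1 in the cap, at 65.8 ± 17.5 TPM. The PSMD1 libraries (53.5 and 78.2 TPM) overlapped those of PSMC6, PSMD6 and PSMD12. The activator PSME4 was at 14.9 to 20.5 TPM on average in all 4 groups.

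The first question was whether the resistant clone of the HPV− line differed from its parental cells. The answer was a broad, moderate reduction: 35 of 44 genes fell and 0 rose in SCC411 against SCC89 (edgeR quasi-likelihood test, adjusted p under 0.05). At an unadjusted p under 0.05, 37 were lower and 0 higher, and DESeq2 also called 0 higher. Over all 15221 genes tested, 14.1% fell and 12.8% rose, 26.8% in all. The median log2 fold change of the 44 was −0.61, against 0.04 over all genes tested. Among 1647 tested genes of like abundance (mean CPM between 86.7 and 167, the quartiles of the members), 23.1% fell and the median was −0.10, an alternative added after the data were seen. Both clone libraries lay below both parental libraries for 39 of 44 genes, which was so for 28.5% of all genes. The fall was met in nearly every class: 13 of 14 core genes, 14 of 15 cap genes, all of PSME3, PSME4 and PSMF1, and 3 of 7 assembly chaperones. None of the 3 immunoproteasome genes passed. The count depended on the libraries, since it was 15 without SCC411 replicate 1 and 22 without SCC411 replicate 2, each still with 0 higher.

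**Figure D2:**
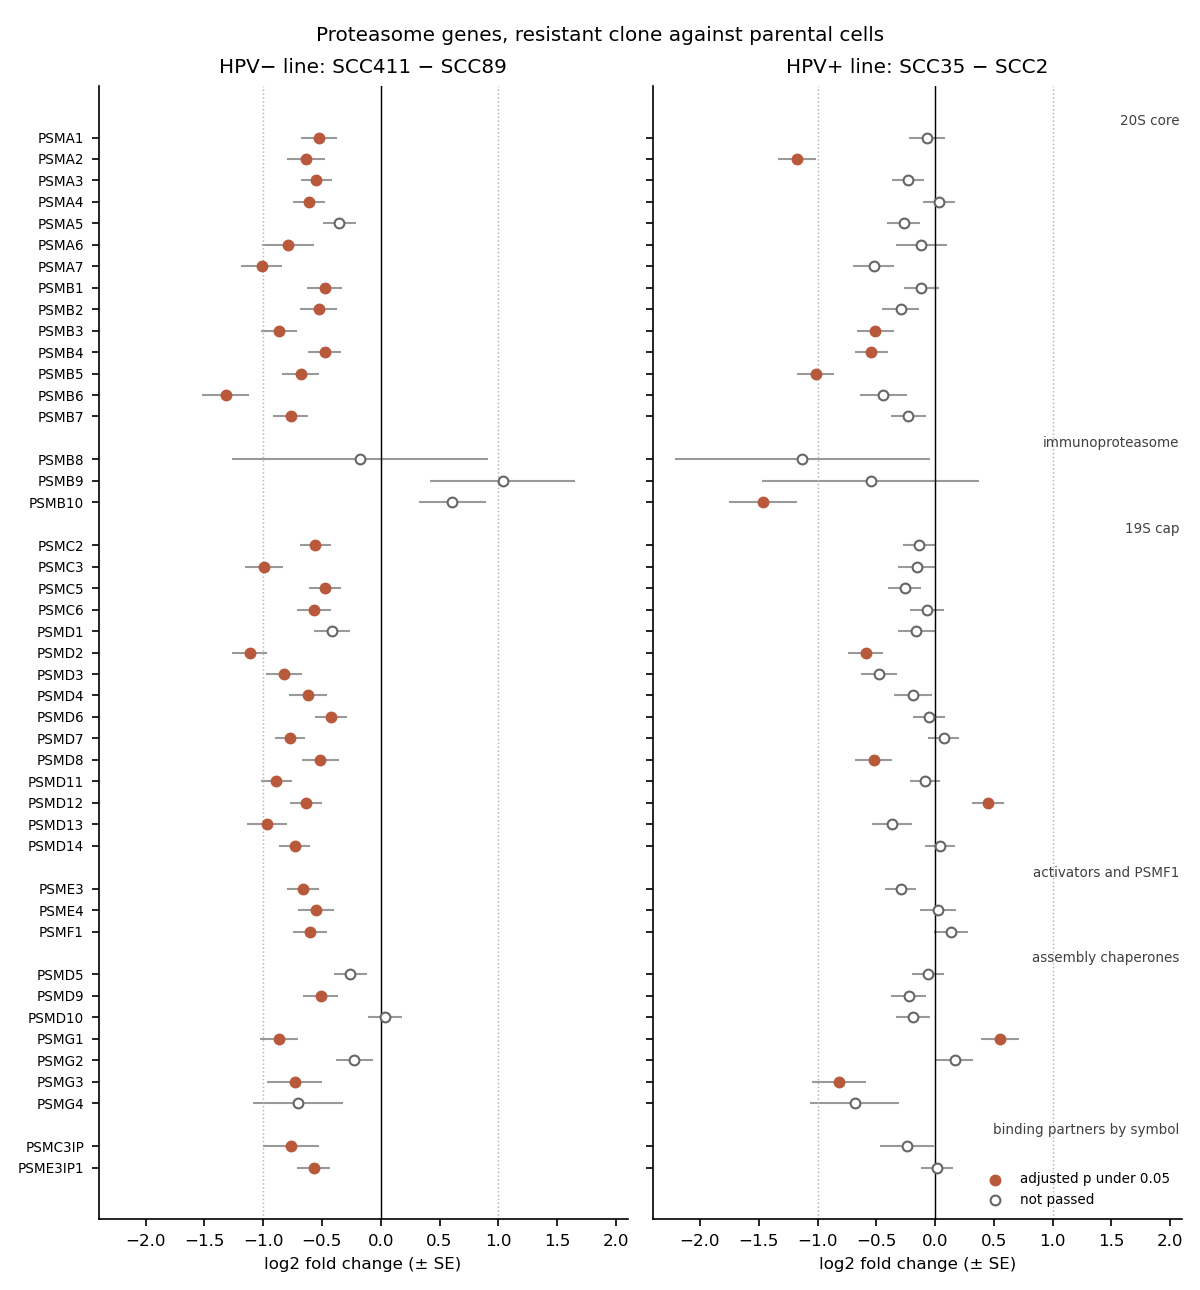
Log2 fold change with its standard error (edgeR, 2 libraries per group) for the 44 tested genes, grouped by class, in the HPV− clone (left) and the HPV+ clone (right), each against its parental line; filled points passed an adjusted p under 0.05 and dotted lines mark 2-fold. On the left 35 points are filled and all lie below 0; on the right 8 filled points lie below and 2 above 0.

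Only 3 of the 44 fell by more than 2-fold in SCC411, against 5.22% of all genes, and they belong to different parts of the particle. PSMB6, the caspase-like catalytic subunit (ENSG00000142507.10, chr17:4796144-4798502 in GENCODE on GRCh38), was at 275 and 216 CPM in SCC89 and at 80.6 and 117 CPM in SCC411. The clone libraries were both well below the parental ones. The log2 fold change was −1.32 ± 0.20 (SE, n = 2 per group, edgeR adjusted p = 0.00138). PSMD2, the large cap scaffold that docks ubiquitin receptors (ENSG00000175166.17, chr3:184299198-184309050), was at 537 and 642 CPM in SCC89 and 256 and 288 CPM in SCC411. Its log2 fold change was −1.12 ± 0.15 (edgeR adjusted p = 0.000751). Its libraries did not overlap either. PSMA7, an alpha ring subunit (ENSG00000101182.15, chr20:62136733-62143440), was at 760 and 545 CPM in SCC89 and 311 and 336 CPM in SCC411, with a log2 fold change of −1.01 ± 0.18 (edgeR adjusted p = 0.00277). These 3 passed an adjusted p under 0.05 under every alternative, although the log2 fold change of PSMA7 ranged from −1.30 to −0.76 across them.

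The cap ATPases, which unfold the substrate, fell together: PSMC3, PSMC6, PSMC2 and PSMC5 had log2 fold changes of −0.99, −0.57, −0.56 and −0.47. PSMC3 was at 168 and 138 CPM in SCC89 and 68.1 and 85.7 CPM in SCC411, just inside the 2-fold threshold. Of the 11 other cap genes 10 fell, among them PSMD13 (−0.97), PSMD11 (−0.89) and PSMD14 (−0.73), the deubiquitinase that removes the chain, with its partner PSMD7 (−0.77). PSMD1, the other large scaffold, did not pass at −0.41 ± 0.16 (edgeR adjusted p = 0.0747). In the core PSMA5 alone did not pass, at −0.35 ± 0.14 (edgeR adjusted p = 0.0943), with 217 and 236 CPM in SCC89 and 165 and 190 CPM in SCC411. PSMB7 and PSMB5, the other standard catalytic subunits, fell by 0.76 and 0.68 on the log2 scale. The calls of PSMD6, PSMD8 and PSMB4 were lost with upper-quartile factors, with edgeR on the 4 libraries and with an offset for transcript length.

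Activators and chaperones moved by similar amounts where they passed. PSME3, the nuclear activator, was at 251 and 290 CPM in SCC89 and 165 and 176 CPM in SCC411 (log2 fold change −0.66). PSME4 and PSMF1 had log2 fold changes of −0.55 and −0.60. Of the core chaperones, PSMG1 fell by 0.87 and PSMG3 by 0.73 on the log2 scale, whereas PSMG2 (−0.22) and PSMG4 (−0.71 ± 0.38, with 55.5 and 23.3 CPM in SCC89) did not pass. The call of PSMG3 was lost with upper-quartile factors, edgeR on the 4 libraries, an offset for transcript length and the replicate number as a block. It was also lost without any 1 library other than SCC89 replicate 2. The value of PSMG3 ran from −1.16 to −0.27 with 1 library left out. Of the cap chaperones PSMD9 fell by 0.51 and PSMD5 did not pass at −0.26. PSMD10, also known as the oncoprotein gankyrin, was at 113 and 103 CPM in SCC89 and 109 and 113 CPM in SCC411, with overlapping libraries. The calls of PSMD9, PSME4 and PSMF1 were lost without SCC411 replicate 1. Those of PSMD9 and PSME4 were also lost with edgeR on the 4 libraries, with the length offset and with other libraries left out. The non-subunits PSMC3IP and PSME3IP1 fell by 0.76 and 0.57.

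The second question was the same for the HPV+ line. There, 8 of 44 genes fell and 2 rose in SCC35 against SCC2 (edgeR adjusted p under 0.05), while 10.5% of all genes fell and 7.65% rose, 18.1% in all. The median of the 44 was −0.23 against 0.00 over all genes, and both clone libraries lay below both parental libraries for 27 of 44 genes, against 34.3% of all genes. The genes that fell were PSMB10, PSMA2, PSMB5, PSMG3, PSMD2, PSMB4, PSMD8 and PSMB3, and those that rose were PSMG1 and PSMD12. By class, 4 of 14 core and 2 of 15 cap genes fell. Among the genes of like abundance 16.3% fell and 7.89% rose. The count of 10 rested on the libraries used: it was 2 without SCC2 replicate 1, 3 without SCC2 replicate 2, 3 without SCC35 replicate 1 and 2 without SCC35 replicate 2. PSMA2 and PSMB5 passed in each of these.

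**Figure D3:**
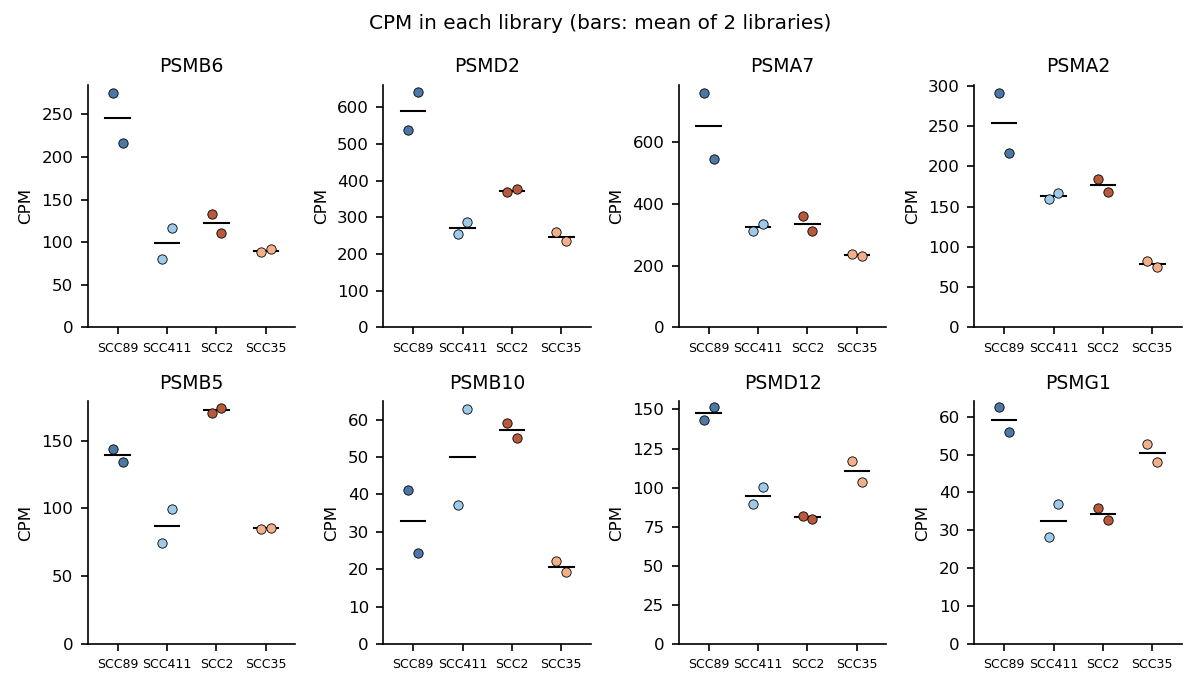
CPM in each of the 8 libraries for the 6 genes past 2-fold in either clone and the 2 that rose in the HPV+ clone; points are libraries and bars are means of 2 libraries, on linear axes from 0. PSMB6, PSMD2 and PSMA7 fell past 2-fold in SCC411, and PSMA2, PSMB5 and PSMB10 in SCC35. By less, PSMA2 and PSMB5 also fell in SCC411 and PSMD2 in SCC35. PSMD12 and PSMG1 were lower in SCC411 and higher in SCC35 than in the parental lines.

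Again 3 genes fell by more than 2-fold, against 4.6% of all genes, and they were other genes than in the HPV− clone. For PSMB6, PSMD2 and PSMA7 the difference between the lines (HPV+ minus HPV−) was 0.88, 0.53 and 0.49 on the log2 scale and did not pass (edgeR adjusted p = 0.0552, 0.117 and 0.208). PSMA2, an alpha ring subunit (ENSG00000106588.12, chr7:42916828-42932185), was at 185 and 169 CPM in SCC2 and 82.3 and 74.6 CPM in SCC35. Its log2 fold change was −1.17 ± 0.16 (edgeR adjusted p = 0.00147). The same gene had fallen by 0.64 in the HPV− clone, and the difference between the lines did not pass (−0.54 ± 0.23, edgeR adjusted p = 0.141). PSMB5, the chymotrypsin-like subunit and the main target of bortezomib (ENSG00000100804.19, chr14:23016543-23035230), was at 171 and 174 CPM in SCC2 and 85.1 and 85.6 CPM in SCC35. Its log2 fold change was −1.02 ± 0.16 (edgeR adjusted p = 0.00231). In SCC411 it was at 74.5 and 99.3 CPM, against 144 and 135 CPM in SCC89, so PSMB5 was low in both clones, and the difference between the lines did not pass (−0.34 ± 0.22, edgeR adjusted p = 0.336).

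The third was PSMB10, the immunoproteasome counterpart of PSMB7 (ENSG00000205220.12, chr16:67934506-67936864). It was at 59.2 and 55.1 CPM in SCC2 and 22.3 and 19.1 CPM in SCC35, a log2 fold change of −1.47 ± 0.29 (edgeR adjusted p = 0.0104). The call was lost without SCC2 replicate 1 (−1.43) or SCC35 replicate 2 (−1.36). In the HPV− line PSMB10 was at 41.2 and 24.4 CPM in SCC89 and 37.2 and 62.8 CPM in SCC411, with overlapping libraries (0.61 ± 0.29, edgeR adjusted p = 0.149). Without SCC89 replicate 1 this was 1.02 and passed as higher. The 2 lines differed in this gene by −2.08 ± 0.41 on the log2 scale (edgeR adjusted p = 0.0095), and this call held under every alternative. Per PSMB7, PSMB10 TPM was 26.3 and 17.9% in SCC89, 33.0 and 47.2% in SCC411, 43.0 and 44.5% in SCC2 and 20.6 and 17.6% in SCC35. TPM ratios of this gene are shaped by its transcripts, which are described next.

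The transcript that carried most of PSMB10 differed between the lines. The 8-exon protein-coding transcript ENST00000358514.9 (977 bases) held 51.9 and 56.3% of the gene's estimated counts in SCC89 and 98.1 and 98.5% in SCC411. Its share was 7.19 and 11.2% in SCC2 and 8.56 and 9.74% in SCC35. Most of the rest was ENST00000570985.1, a retained-intron transcript of 591 bases and 4 exons, at 39.6 and 36.0% in SCC89, 0.656 and 0% in SCC411, 82.9 and 78.8% in SCC2 and 80.6 and 79.6% in SCC35. Libraries of a group were close to each other and the HPV− clone stood apart from the other groups. The short transcript shares 493 of its bases with the protein-coding one and adds 98 bases of the intron before exon 5. Reads within the shared bases cannot separate the 2. Reads on the 98 added bases, or on the remainder of the 977 bases, can. Another, ENST00000570304.1 (retained intron, 851 bases), held 6.86 to 9.38% outside SCC411 and 0.205 and 0.542% in SCC411. Those 98 bases and the first 20 of exon 5, in capitals, read from GRCh38:

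PSMB10 (chr16:67935678-67935795, minus strand): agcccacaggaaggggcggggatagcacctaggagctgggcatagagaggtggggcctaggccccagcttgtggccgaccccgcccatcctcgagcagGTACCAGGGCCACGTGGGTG

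In an edgeR test on 67491 transcripts, added after the data were seen, the log2 fold change of the 591-base transcript was −6.49 ± 0.98 in SCC411 against SCC89 (adjusted p = 0.0612) and did not pass, where 0.557% of transcripts did. The protein-coding transcript was higher in SCC411 by 1.58 ± 0.37 (adjusted p = 0.143) and lower in SCC35 by −1.46 ± 0.37 (adjusted p = 0.179) in the same edgeR test, neither past the threshold, which 0.579% of transcripts passed in SCC35. It was lower in SCC2 than in SCC89 (−1.72 ± 0.37, edgeR adjusted p = 0.0417), where 9.67% of transcripts passed. PSMB10 was the sole gene of the 44 whose leading transcript differed between groups and not within them, and 37 had 1 leading transcript in all 8 libraries. A neighbouring readthrough gene, ENSG00000261884.2, overlaps PSMB10, and whether reads are shared between them was not measured. This readthrough gene was at 7.96 and 5.59 CPM in SCC89, 4.33 and 3.54 in SCC411, 15.3 and 14.3 in SCC2 and 9.91 and 7.59 in SCC35.

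**Figure D4:**
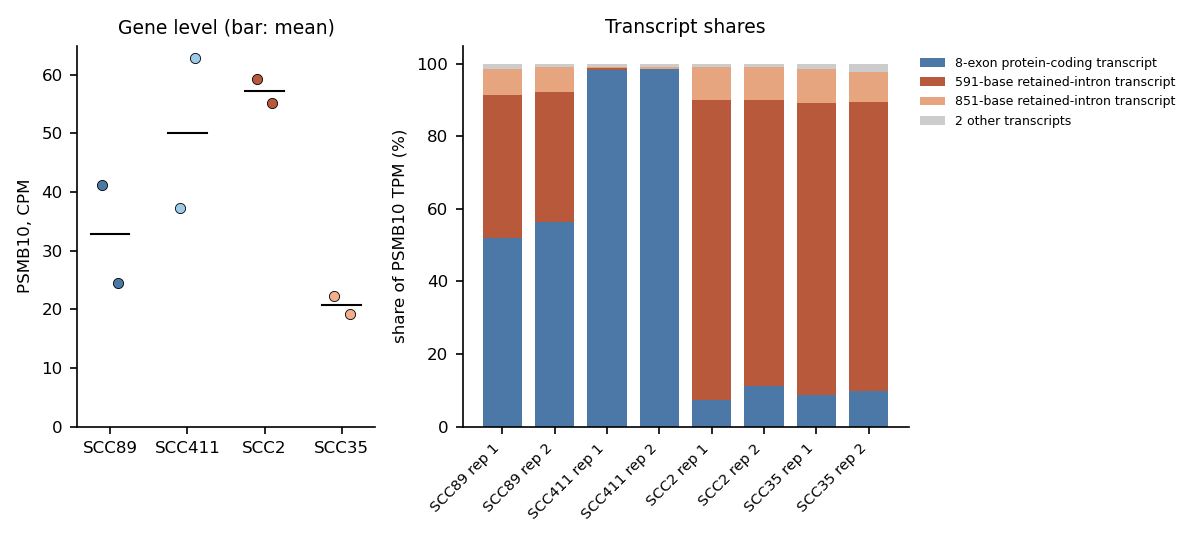
PSMB10 in each library: CPM of the gene on the left (points are libraries, bars are means of 2) and, on the right, the percentage of the gene's estimated counts given to each transcript. The right axis is labelled TPM, but the shares are of estimated counts. SCC411 was at 98.1 and 98.5% protein-coding transcript, SCC89 at 51.9 and 56.3%, and the 4 HPV+ libraries at 7.19 to 11.2%.

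The other immunoproteasome genes were lower in level. PSMB8, the counterpart of PSMB5, was at 5.45 and 1.62 CPM in SCC89, 3.37 and 2.84 in SCC411, 7.31 and 1.89 in SCC2 and 3.81 and 0.387 in SCC35. Libraries of a group differed by as much as the groups, and no comparison passed. PSMB9, the counterpart of PSMB6, was at 2.51 and 2.66 CPM in SCC89, 4.38 and 6.23 in SCC411, 0.197 and 0.264 in SCC2 and 0 and 0.31 in SCC35. It was lower in SCC2 than in SCC89 by −3.46 ± 0.75 on the log2 scale (edgeR adjusted p = 0.00268), and neither clone passed against its parental line. It had 0 to 8 counts per HPV+ library, near the limit of 3 counts. PSMB8 had 10 to 186 counts. Both rest on part of their annotated transcripts.

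Of the smaller HPV+ changes, PSMG3, a core chaperone, was at 57.2 and 52.9 CPM in SCC2 and 33.2 and 29.3 CPM in SCC35 (−0.82 ± 0.23, edgeR adjusted p = 0.038). PSMD2 fell as in the HPV− clone, from 368 and 378 CPM to 260 and 236 CPM (−0.59 ± 0.15, edgeR adjusted p = 0.0222). PSMB4 (−0.54), PSMD8 (−0.52) and PSMB3 (−0.51) fell by less. PSMG1, which pairs with PSMG2 to start the alpha ring, rose from 35.8 and 32.6 CPM to 52.7 and 47.9 CPM (0.56 ± 0.16, edgeR adjusted p = 0.0389). PSMD12, a lid subunit of the cap, rose from 81.8 and 80.0 CPM to 117 and 104 CPM (0.45 ± 0.14, edgeR adjusted p = 0.0461). The libraries of both genes were separated. The calls of PSMG3, PSMD2, PSMB4, PSMD8, PSMB3, PSMG1 and PSMD12 were all lost without any 1 of the 4 HPV+ libraries, with the direction kept. An offset for transcript length lowered PSMD12 to 0.29 and ended its call.

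Whether the clones changed differently in the lines was tested as an interaction. Here 8 genes were more positive in the HPV+ line and 1, PSMB10, more negative, against 8.16 and 8.57% of all genes, 16.7% in all. PSMG1, PSMD12 and PSMB10 were past 2-fold, as were 11.7% of all genes, 6.57% as more negative. PSMG1 had the largest positive difference, 1.42 ± 0.23 on the log2 scale (edgeR adjusted p = 0.00274), since it fell in SCC411 and rose in SCC35. PSMD12 did likewise, from 143 and 152 CPM in SCC89 to 89.4 and 100 CPM in SCC411, with a difference of 1.09 ± 0.19 (edgeR adjusted p = 0.00436). The 6 others were PSMD7 (0.84), PSMC3 (0.84), PSMD11 (0.80), PSMD14 (0.77), PSMF1 (0.74) and PSMA4 (0.64), each lower in SCC411 and not past the threshold in SCC35. PSMC3, for example, was at 175 and 157 CPM in SCC2 and 151 and 147 CPM in SCC35. With the length offset PSMD11 passed as lower in SCC35 too (−0.87), and its difference fell to 0.25 and lost its call. All 6 lost their call without SCC2 replicate 2 and also without SCC35 replicate 1. By class, 5 of 15 cap genes and 1 of 14 core genes differed. The number was 16 without SCC89 replicate 2, 4 and 3 without SCC2 replicates 1 and 2, and 3 and 5 without SCC35 replicates 1 and 2.

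The parental lines were compared as well. In SCC2 against SCC89, 24 of 44 were lower and 4 higher (edgeR adjusted p under 0.05), with 30% of all genes lower and 28% higher, 58% in all, so the total of 28 called lay near the background. The 11 past 2-fold were all lower, against 19.3% of all genes. All 7 alpha subunits were lower in SCC2, against 2 of 7 beta subunits. PSMA3 was at 341 and 306 CPM in SCC89 and 58.2 and 60.5 CPM in SCC2 (−2.45 ± 0.14, edgeR adjusted p = 2.92e-07). PSMA6 was at 665 and 395 CPM in SCC89 and 151 and 124 CPM in SCC2 (−1.95 ± 0.23, edgeR adjusted p = 4.2e-05). In the cap, PSMC2 was at 275 and 246 CPM against 86.1 and 80.9 CPM (−1.64 ± 0.14, edgeR adjusted p = 3.33e-06). These 3 stayed low in SCC35, at 47.7 to 53.5, 125 to 128 and 74.2 to 77.7 CPM. The other genes past 2-fold were PSMB9, PSMD11, PSMB3, PSMF1, PSMA5, PSMD1, PSMD10 and PSMB6, with log2 fold changes of −3.46 to −1.01. The 4 higher genes were PSMB10, PSMD5, PSMD8 and PSMD6. Of these PSMB10, PSMD8 and PSMD6 lost their call without either SCC2 library, and PSMB10 was at 0.43 without SCC89 replicate 2.

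Members were set beside their neighbours on the chromosome, as the median of the 20 nearest tested genes (10 on each side). In the HPV− clone 42 of 44 were below that median, and the medians ran from −0.52 to 0.51. PSMB6 (−1.32) had a neighbour median of −0.19, PSMA7 (−1.01) of 0.00 and PSMD2 (−1.12) of −0.52. In the HPV+ clone 39 of 44 were below, but a few moved with their neighbours: PSMG1 (0.56) had a neighbour median of 0.75, PSMG3 (−0.82) of −0.78 and PSMD2 (−0.59) of −0.63. PSMA2, PSMB5 and PSMB10 did not, with neighbour medians of −0.18, −0.12 and −0.14. For the difference between the lines 8 of 44 were below their neighbour median. Among the genes that passed that test, PSMF1 (0.74) had a neighbour median of 0.93 and PSMG1 (1.42) of 0.66. Those of PSMD12 (1.09) and PSMB10 (−2.08) were −0.14 and 0.16. Between the parental lines the neighbours of PSMA6 and PSMC2 were low as well, with medians of −1.39 and −1.43. The part of position in these values was not tested.

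**Figure D5:**
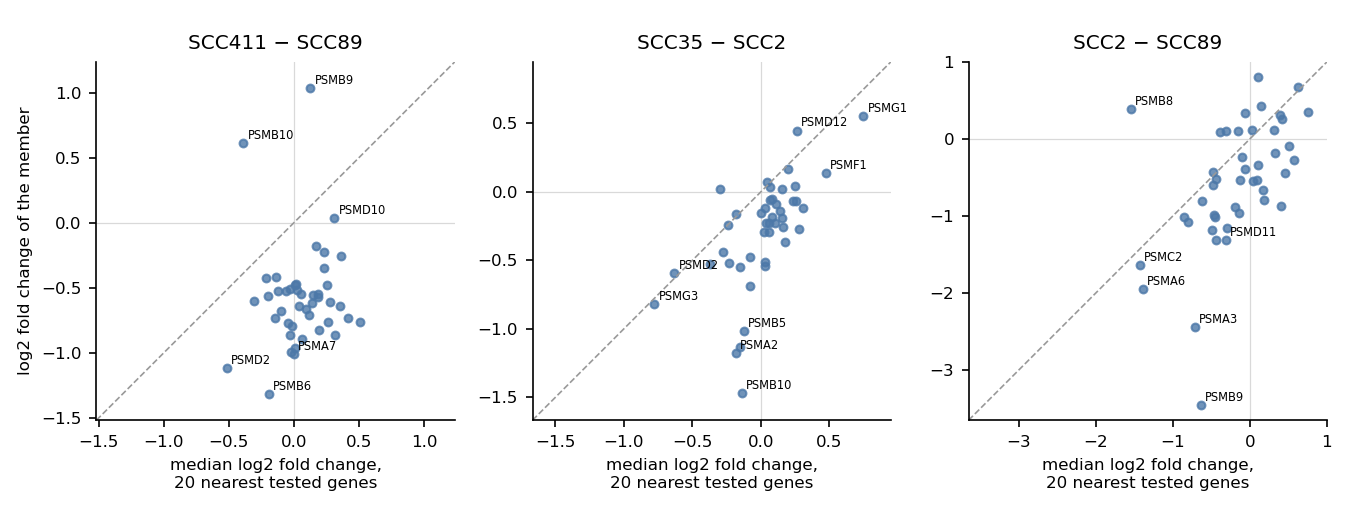
Log2 fold change of each of the 44 genes (vertical axis) against the median log2 fold change of its 20 nearest tested genes (horizontal axis) in the HPV− clone, the HPV+ clone and the parental lines; the dashed line marks equality. PSMG1, PSMG3 and PSMD2 lie near the line in the HPV+ clone. PSMC2 does so in the parental comparison, where PSMA6 lies below the line with its neighbours low as well. PSMB6 in the HPV− clone and PSMA2, PSMB5 and PSMB10 in the HPV+ clone lie away from it.

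Promoters are shown for the genes past 2-fold in either clone and for the genes that rose, as far as RefSeq holds them (GRCh38.p14, 250 bases before to 50 after the start). The 51 promoters of 40 genes of the set matched, and PSMB6 and PSMA7 were not among them. Capitals mark, on either strand, TGACNNNGC (antioxidant response element core), CCAAT, TTCNNNGAA (the site form of STAT factors, called GAS) and GAAA, any 2 bases, GAAA (the core of the interferon-stimulated response element). No capitals means that these letters are not in the window.

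PSMB10 (chr16:67936801-67937100, minus strand): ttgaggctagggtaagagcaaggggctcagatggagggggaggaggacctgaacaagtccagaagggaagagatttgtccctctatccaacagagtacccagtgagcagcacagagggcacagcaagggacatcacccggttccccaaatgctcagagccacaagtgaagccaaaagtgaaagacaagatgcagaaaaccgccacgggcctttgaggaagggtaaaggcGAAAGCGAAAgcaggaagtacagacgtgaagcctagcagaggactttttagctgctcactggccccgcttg
PSMA2 (chr7:42932125-42932424, minus strand): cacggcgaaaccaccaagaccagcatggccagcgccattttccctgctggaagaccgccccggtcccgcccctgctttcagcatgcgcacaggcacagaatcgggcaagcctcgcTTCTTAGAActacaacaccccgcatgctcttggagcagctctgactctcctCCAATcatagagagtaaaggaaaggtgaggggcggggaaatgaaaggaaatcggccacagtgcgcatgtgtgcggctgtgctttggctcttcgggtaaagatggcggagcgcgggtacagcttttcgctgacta
PSMB5 (chr14:23035171-23035470, minus strand): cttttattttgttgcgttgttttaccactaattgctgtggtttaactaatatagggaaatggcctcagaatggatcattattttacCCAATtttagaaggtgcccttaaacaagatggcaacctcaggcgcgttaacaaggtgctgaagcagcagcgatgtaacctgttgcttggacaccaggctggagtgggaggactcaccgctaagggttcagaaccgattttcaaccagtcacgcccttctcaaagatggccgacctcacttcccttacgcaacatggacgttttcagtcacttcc
PSMD2 (chr3:184298991-184299290, plus strand): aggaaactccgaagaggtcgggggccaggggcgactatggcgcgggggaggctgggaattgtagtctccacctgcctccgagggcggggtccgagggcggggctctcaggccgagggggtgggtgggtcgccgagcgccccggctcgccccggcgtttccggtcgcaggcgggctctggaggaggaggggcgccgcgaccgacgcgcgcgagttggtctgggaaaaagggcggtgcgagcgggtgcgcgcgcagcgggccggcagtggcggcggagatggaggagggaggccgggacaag
PSMD12 (chr17:67366528-67366827, minus strand): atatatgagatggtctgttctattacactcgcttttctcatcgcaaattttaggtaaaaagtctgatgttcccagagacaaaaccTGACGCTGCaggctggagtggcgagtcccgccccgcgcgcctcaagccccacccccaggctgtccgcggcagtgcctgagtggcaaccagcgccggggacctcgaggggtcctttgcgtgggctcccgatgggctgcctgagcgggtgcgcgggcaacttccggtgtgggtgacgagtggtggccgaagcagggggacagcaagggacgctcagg
PSMG1 (chr21:39183402-39183701, minus strand): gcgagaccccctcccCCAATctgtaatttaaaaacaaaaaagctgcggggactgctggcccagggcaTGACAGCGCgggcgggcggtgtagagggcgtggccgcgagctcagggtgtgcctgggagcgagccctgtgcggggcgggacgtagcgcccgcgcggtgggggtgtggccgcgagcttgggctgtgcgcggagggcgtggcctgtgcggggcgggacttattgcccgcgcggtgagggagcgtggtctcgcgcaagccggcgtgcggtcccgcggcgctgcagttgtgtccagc

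The interferon-stimulated response element core stood in 5 of the 51 promoters (9.8%) and in 3.57% of all 35116 promoters of the same length, and PSMB10 held 1 copy. TGACNNNGC stood in 12 of 51 (23.5%) and in 13.3% of all. It was held by PSMD12 and PSMG1, which rose in the HPV+ clone, and by PSMB3, which fell there. The other genes that held it, such as PSMD1 and PSMD9, did not pass there. CCAAT stood in 24 of 51 (47.1%) and in 34.6% of all, and TTCNNNGAA in 7 of 51 (13.7%) and 7.66%. PSMA2 held both of these, PSMB5 held CCAAT at the start shown, and PSMD2 held none of the 4 at the start shown. These matches describe letters and are not measured binding.

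Genes that work with the proteasome were taken from lists outside the symbol rule. Their counts stand against 14.1% of all genes lower and 12.8% higher in SCC411, 10.5 and 7.65% in SCC35, and 30 and 28% in SCC2 against SCC89, and several lie near these shares. Of 15 partner genes, 3 fell in SCC411 and 0 rose (1 was higher at an unadjusted p under 0.05). ADRM1, a ubiquitin receptor of the cap, fell from 355 and 267 CPM to 137 and 191 CPM (−0.92). The others were POMP, which matures the core (−0.81, 2 of 12 transcripts matched), and UCHL5, a deubiquitinase (−0.47). The median of the list was −0.33. In SCC35 ADRM1 alone passed, at −0.75. Of 12 shuttle and unfoldase factors, 4 fell in SCC411 and 1 rose. VCP, the unfoldase that prepares substrates, was at 520 and 554 CPM in SCC89 and 296 and 294 CPM in SCC411 (−0.87). Of its adaptors in the list, NSFL1C (−1.10), UFD1 (−1.10) and NPLOC4 (−0.47) fell with it, whereas FAF1 and FAF2 did not pass. FAF1 was at 37.4 and 55.9 CPM in SCC89 and 50.8 and 57.4 CPM in SCC411. UBQLN2 rose by 0.63. In SCC35 VCP alone fell, by 0.52.

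Of 15 tested regulators of proteasome genes, 1 rose and 2 fell in SCC411. IRF1, an interferon-induced activator of immunoproteasome genes, was at 36.5 and 36.6 CPM in SCC89 and 87.3 and 93.1 CPM in SCC411 (1.30 ± 0.14, edgeR adjusted p = 0.000253). MAFF (−1.91) and MAFK (−0.57), small Maf partners of the NFE2L factors, fell. NFE2L1, the factor that restores proteasome genes after inhibition, did not pass in either clone and was at 340 and 382 CPM in SCC89 and 406 and 432 CPM in SCC411. In SCC35 MAFF (1.17) and NFE2L2 (0.75) rose and MAFK (−1.45) and KEAP1 (−0.78), the inhibitor of NFE2L2, fell. NFE2L2 had 12 of 65 transcripts matched. Of 15 tested genes of class I antigen processing, 4 rose and 2 fell in SCC411, 1 fell in SCC35, and 11 were lower in SCC2 than in SCC89, although 9 of the 15 had only part of their transcripts matched. ERAP1, which trims peptides, rose from 29.3 and 34.0 CPM to 75.4 and 92.4 CPM in SCC411 (1.41 ± 0.16, edgeR adjusted p = 0.000349). TAPBPL, a peptide editor, was at 6.92 and 6.31 CPM in SCC2 and 1.74 and 0.891 CPM in SCC35 (−2.32 ± 0.31, edgeR adjusted p = 0.00135).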

How the data were processed

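RNA from 8 libraries in 4 groups of 2 was prepared with polyA selection and sequenced as 150 bp paired-end reads. The authors quantified transcripts with Salmon on GRCh38. The sources name no version of Salmon and no annotation. The deposited files hold estimated counts per transcript, which the authors did not scale for depth, and TPM values, which the authors' run of Salmon scaled for length and depth within each library. Transcripts were matched to GENCODE release 44 by identifier without version (172550 of 187432), and estimated counts were summed per gene and rounded. Unmatched transcripts were left out. Genes were tested with edgeR 4.0.16 (R 4.3.3, limma 3.58.1) in a single robust quasi-likelihood fit of all 8 libraries with TMM factors, filterByExpr and 1 coefficient per group, with Benjamini-Hochberg adjustment over the 15221 genes tested. TPM and the medians of neighbouring genes were given without a test.

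Genes were named if they belonged to the immunoproteasome, its standard counterparts, the activators or PSMF1, were filtered out, passed 2-fold, or had up to 3 of the smallest p per class, direction and comparison or were among the 6 with the smallest p in the interaction test. Further genes were named after their values were seen, to complete a class or a count. Members and lists were chosen with earlier results of these data known. For 1 ATPase gene of the set nothing is reported here. The fit was tested on simulated data. Alternatives were DESeq2 1.42.0, RLE and upper-quartile factors, no filter or 5 CPM in 2 libraries, edgeR on the 4 libraries of a comparison, a length offset, protein-coding genes only, the replicate block and each library left out. A test per transcript, genes of like abundance, and genes with every transcript matched were added after seeing the data. Floors of 3 counts cover counting error only. Tables were made with pandas 2.3.3 and numpy 2.4.6 in Python 3.11.15, plots with matplotlib 3.10.9.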

Additional observations from a re-analysis of the deposited data

Results flagged for a closer look

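For 9 of the 44 genes the change in the resistant clone differed between the lines by the interaction test (edgeR, adjusted p under 0.05). The same test called 16.7% of all genes tested. Differences are given as the log2 fold change in the HPV+ line minus that in the HPV− line. PSMB10 differed by −2.08, with overlapping HPV− libraries and separated HPV+ libraries. PSMG1 differed by 1.42 and PSMD12 by 1.09, each lower in SCC411 and higher in SCC35. PSMD7 (0.84), PSMC3 (0.84), PSMD11 (0.80), PSMD14 (0.77), PSMF1 (0.74) and PSMA4 (0.64) were lower in SCC411 and did not pass in SCC35, except that with an offset for transcript length PSMD11 passed in SCC35 at −0.87 and its difference, then 0.25, did not pass. All 6 differences lost their call without SCC2 replicate 2 and without SCC35 replicate 1. Groups of 2 libraries are too small for a test of single outlying samples.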

How the results depend on the processing

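In SCC411 against SCC89, 35 became 22 in edgeR on the 4 libraries, 23 with the length offset and 15 to 34 with a library left out, and the 3 past 2-fold became 5 on the 4 libraries and 2 to 10 with a library left out, 10 of them without SCC89 replicate 2. In SCC35 against SCC2, 10 became 17 on the 4 libraries, 6 with the length offset and 2 to 14 with a library left out, and the 3 past 2-fold became 1 with the length offset and 2 to 3 with a library left out. For the difference between the lines, 9 became 14 with DESeq2 and 3 to 16 with a library left out, and 3 past 2-fold became 2 to 6. Between the parental lines 28 became 22 to 29 and 11 past 2-fold became 9 to 14. Where a group was left with 1 library, it was assumed to vary like the other groups.

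Replicate numbers were not shown to pair the libraries: same-numbered deviations correlated at −0.07, −0.01 and 0.14 in the HPV−, HPV+ and parental comparisons. With the replicate block 31 genes passed in the HPV−, 6 in the HPV+, 6 in the difference and 26 in the parental comparison, and PSMB8 in SCC411 turned to 0.18.

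Of the values for named genes under the alternatives, 1889 kept direction and side of the threshold, 176 lost it, 36 gained it and 38 changed sign, in every case for a gene that had not passed. With RLE factors, the 5 CPM filter and DESeq2 the difference of PSMD8 was 0.0233, 0.0250 and 0.0232. With the length offset PSMD7 (−0.0809) and PSME4 (−0.00242) turned in SCC35 and PSMG3 (0.0144) in the difference. With a library left out, ranges that crossed 0 were, in SCC411, PSMB8 −0.88 to 0.93 and PSMD10 −0.105 to 0.0968. In SCC35 they were PSMA4 −0.0585 to 0.11, PSMA6 −0.25 to 0.0121, PSMB8 −3.55 to 0.14, PSMB9 −5.42 to 0.41, PSMD14 −0.0243 to 0.0850 and PSME4 −0.0336 to 0.0624. In the difference they were PSMA5 −0.0224 to 0.19, PSMB4 −0.19 to 0.0721, PSMB8 −3.37 to 0.38, PSMD8 −0.15 to 0.20 and PSMG3 −0.54 to 0.33. Between the parental lines they were PSMB4 −4.48e-05 to 0.17, PSMB8 −0.93 to 1.48, PSMC3 −0.0683 to 0.25 and PSMG3 −0.83 to 0.0263. The cause of these changes was not tested. PSMB9 had 0 to 8 counts in the HPV+ libraries, where depth limits its values. PSMB8 had 186 and 50 counts in the SCC2 libraries and 96 and 10 in SCC35.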
